A study of Mus musculus with 9 samples.

Results

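The genes described here make or use nicotinamide adenine dinucleotide (NAD), the electron carrier of glycolysis and mitochondrial oxidation, or use nicotinamide. They are Nmrk1, Nmrk2, Nampt, Nmnat1, Nmnat3, Naprt, Nadsyn1, Nadk and Nnmt, 9 of the 14300 genes listed in both deposited tables. Nmrk2 was picked because its level in orchiectomised mice given dihydrotestosterone lay above that in control mice, and the other 8 were picked for their function. The level of Nmrk2 in those groups is therefore given as a description, with no test.

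RNA was measured by sequencing in tibialis anterior, a fast muscle of the lower leg, of male C57BL/6J mice. There were 3 groups of 3 libraries, called biological replicates in the labels. Control mice (the sham columns of the tables) formed the first group, ORX mice were orchiectomised, and ORX+DHT mice were orchiectomised and given dihydrotestosterone, an androgen that the body makes from testosterone. Muscles were taken 4 weeks after treatment. Age, dose and route, and whether a library came from a single mouse, are not given in the sources used here. The labels give C57BL/6J as the genotype of all samples.

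Cells keep up their NAD mainly by salvage of nicotinamide and its riboside. Nampt, the rate-limiting enzyme of the nicotinamide route, makes nicotinamide mononucleotide, and the riboside kinases Nmrk1 and Nmrk2 make the same intermediate from nicotinamide riboside. Nmnat enzymes then join the mononucleotide to ATP to give NAD. Naprt and Nadsyn1 serve the route from nicotinic acid, Nadk phosphorylates NAD to NADP, and Nnmt methylates nicotinamide and so takes it out of salvage. Nmrk2 is known as a kinase of skeletal and cardiac muscle, while Nmrk1 is found in many tissues.

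Each library held 1340209 to 1682235 reads over the listed protein-coding genes, so a gene at 10 normalised counts rests on about as many reads. Replicates had a Pearson's r of 0.966 to 0.973 across 8631 genes, which are not independent replicates, except that control 1 stood apart with 0.928 and 0.929 against the other controls. The summed level of 7 fast fibre markers (Ckm, Acta1, Myh4, Myh1, Tnnt3, Tnni2 and Mylpf) was 250682 to 312580 normalised counts for control, 205714 to 218291 for ORX and 230079 to 250977 for ORX+DHT libraries, against 82 to 268 for 6 slow fibre markers over all libraries. A bulk sample cannot tell fewer cells of a type from less RNA per cell.

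The promoters of Nmrk2 and Nampt are shown because these were the members that passed the test between ORX+DHT and ORX muscle. Each runs from 250 bases before to 50 bases after the RefSeq start site in GRCm38.p6, 5′ to 3′ on the strand of the gene, with CANNTG and TATAAA in capitals. RefSeq windows were found for 7 of the 9 genes, with none for Naprt and Nnmt.

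Nmrk2 promoter, chr10:81201988-81202287, minus strand: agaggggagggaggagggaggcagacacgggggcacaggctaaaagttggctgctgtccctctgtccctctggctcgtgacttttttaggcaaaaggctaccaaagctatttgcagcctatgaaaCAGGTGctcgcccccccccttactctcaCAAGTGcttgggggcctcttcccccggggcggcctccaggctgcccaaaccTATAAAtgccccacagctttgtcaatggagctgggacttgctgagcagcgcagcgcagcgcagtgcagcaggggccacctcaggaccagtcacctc

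Nampt promoter, chr12:32820085-32820384, plus strand: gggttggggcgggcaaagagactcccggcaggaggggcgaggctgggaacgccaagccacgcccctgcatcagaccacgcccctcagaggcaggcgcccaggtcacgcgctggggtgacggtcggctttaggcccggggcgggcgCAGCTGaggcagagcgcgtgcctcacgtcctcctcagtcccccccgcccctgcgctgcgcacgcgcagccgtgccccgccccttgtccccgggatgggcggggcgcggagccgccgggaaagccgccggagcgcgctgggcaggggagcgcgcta

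Motifs were searched on both strands of 32817 such windows. The Nmrk2 window held CANNTG, the letters bound by muscle regulatory factors, at -125 and -97 and TATAAA at -46, counted to the first base of the match with -1 just before the start. The Nampt window held CANNTG at -105 and no TATAAA. Of all windows 72.3% held CANNTG and 13.6% TATAAA. Neither window held AGAACA, the hexamer bound by the androgen receptor, which 19.0% of windows held. The palindrome, AGAACA followed after 3 free bases by its reverse complement, was in neither and in 0.00914% of windows. CACGTG, a form of CANNTG bound by the clock factors, was in neither window and in 7.15% of all. Windows of members that passed no test also held such letters. A Nadk window held TGTTCT, the reverse complement of AGAACA, at +8, and another Nadk window held CACGTG at -40. CANNTG was in windows of Nmnat1, Nmnat3 and Nadk, while those of Nmrk1 and Nadsyn1 held no match. These are matches of letters and not sites, and a missing match says only that the letters are not in that window.

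Nmrk2 (ENSMUSG00000004939, chr10:81198170-81202051, minus strand, GRCm38) differed more between groups than the other members above the filter on low values. Control libraries 1, 2 and 3 held 341, 364 and 357 normalised counts. ORX libraries held 192, 107 and 226, and ORX+DHT libraries 626, 750.2 and 508. The 3 groups did not overlap: every ORX library lay below every control, and every ORX+DHT library above every control. Nmrk2 was picked for its ORX+DHT level above control, so this order and its larger difference than the other members are a description. Means were 354 ± 11.7 in control mice, 175 ± 61.0 in ORX mice and 628 ± 121 in ORX+DHT mice (SD, n = 3), so the controls were close together and the other groups were spread. Exons of Nmrk2 share 270 bases with Atcayos, an antisense gene on the opposite strand. The kit marks strand, but the strand setting of counting is not given in the sources used here, so reads there may belong to either gene.

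**Figure D1:**
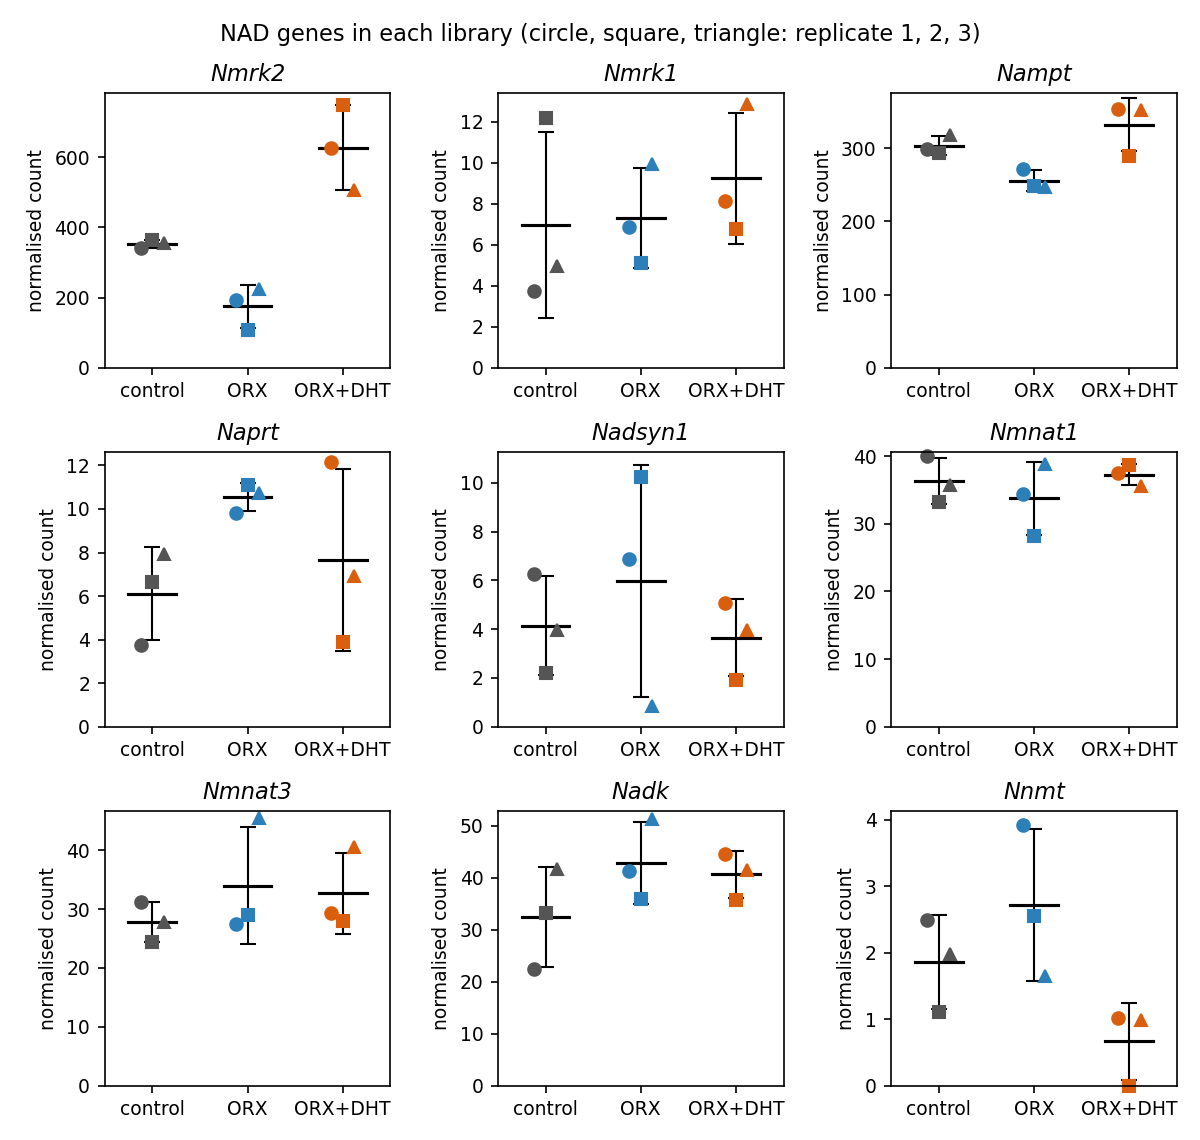
Normalised counts (vertical axes, each from 0) of the 9 NAD genes in control, ORX and ORX+DHT libraries, with replicates as symbols, the group mean as a bar and the SD as an error bar (n = 3). Nmrk2 lies between 107 and 226 in ORX and between 508 and 750.2 in ORX+DHT libraries, with controls at 341 to 364.

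Between ORX and ORX+DHT muscle Nmrk2 rose 3.58-fold in group means. Its log2 fold change was 1.89 (SE 0.19, adjusted p 5.99e-06 by limma), with a 95% interval of 1.47 to 2.30. Of 8770 genes tested, 12 had a higher log2 fold change, and all 12 were called. This comparison shares the ORX+DHT libraries with the values that chose Nmrk2, so its p is not independent of the choice. The call was lost with robust eBayes, which lets a gene keep its own large spread (SE 0.35, adjusted p 0.0816 by limma). It held in each fit that left out a library, with log2 fold changes from 1.57 without ORX replicate 2, the lowest of all libraries, to 2.10 without ORX replicate 3.

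Between control and ORX muscle the log2 fold change of Nmrk2 was -1.08 (SE 0.23, 95% interval -1.59 to -0.57) and did not pass (adjusted p 0.226 by limma). Of 8631 genes tested, 24 had a lower log2 fold change. The control libraries here are also among those that chose the gene. Nmrk2 passed without control replicate 1 (log2 fold change -1.10, adjusted p 0.0355 by limma) and with DESeq2 (log2 fold change -1.004, adjusted p 0.0203), and did not pass with edgeR (adjusted p 0.234).

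Between control and ORX+DHT muscle, the contrast that chose the gene, group means differed 1.78-fold. The log2 difference was 0.81. These values chose the gene and support nothing.

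Nmrk1 (ENSMUSG00000037847, chr19:18631950-18652428), the kinase found in many tissues, was near the floor of measurement. Its libraries held 3, 11 and 5 reads for control, 7, 6 and 12 for ORX and 8, 7 and 13 for ORX+DHT mice. The groups overlapped, and the ratio of summed reads between ORX+DHT and ORX, scaled by library, was 1.26 with an exact 95% counting interval of 0.706 to 2.25. A fold of the size of that of Nmrk2 lies outside this interval, which covers counting error only.

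Nampt (ENSMUSG00000020572, chr12:32819545-32853349) was the other member that passed. Control libraries held 299.7, 293 and 319 normalised counts, ORX libraries 272, 248 and 247, and ORX+DHT libraries 354, 290.03 and 353. ORX libraries lay below all others, while control and ORX+DHT libraries overlapped. Nampt rose between ORX and ORX+DHT muscle by a log2 fold change of 0.37 (SE 0.10, 95% interval 0.16 to 0.58, adjusted p 0.0456 by limma), or 1.30-fold in group means. It was close to the threshold: 191 called genes had a higher log2 fold change, and the adjusted p reached 0.259 with all 9 libraries in 1 fit, 0.145 with DESeq2 and 0.105 after quantile normalisation. It also did not pass without ORX replicate 2 or 3 or ORX+DHT replicate 1 or 3 (adjusted p 0.173, 0.107, 0.222 and 0.170 by limma).

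Between control and ORX muscle the log2 fold change of Nampt was -0.25 (SE 0.14, adjusted p 0.712 by limma). Between control and ORX+DHT muscle it was 0.12 (SE 0.14, adjusted p 0.852 by limma), with a 95% interval of -0.18 to 0.43.

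**Figure D2:**
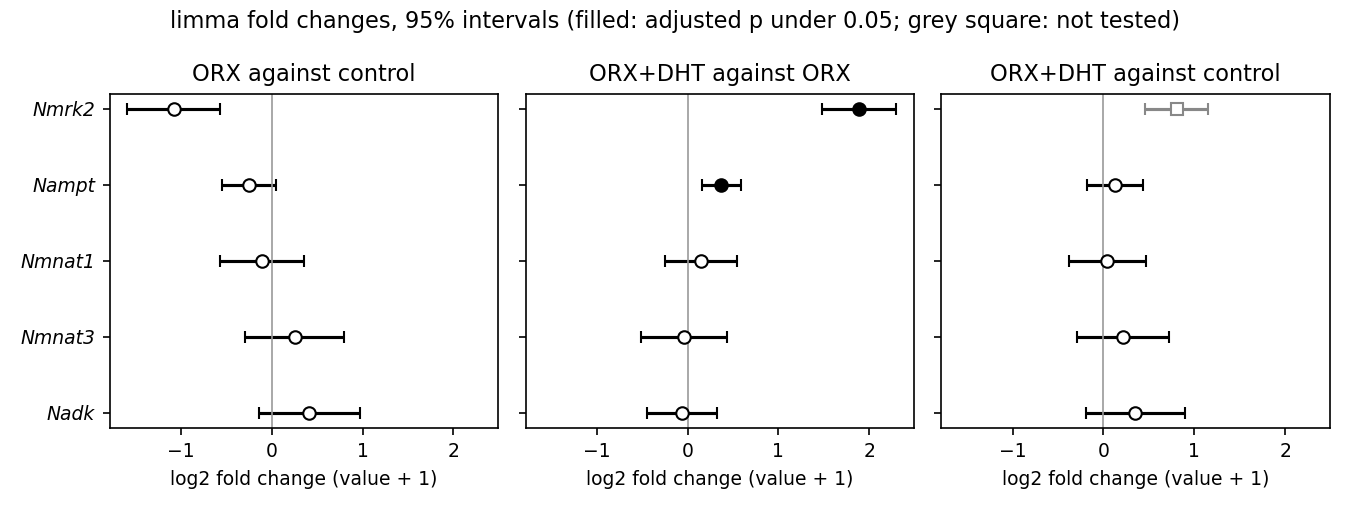
Log2 fold changes on the log2(value + 1) scale (horizontal axes) of the 5 members that passed the filter on low values, with 95% intervals, in the 3 comparisons. Filled points passed at an adjusted p under 0.05, and the grey square marks Nmrk2 in the contrast that chose it, which was not tested. Nmrk2 (1.89) and Nampt (0.37) are filled in ORX+DHT versus ORX.

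Nmnat1 (ENSMUSG00000028992, chr4:149467572-149485202), the nuclear enzyme of the last step of salvage, passed in no comparison. It stood at 36.3 ± 3.42 normalised counts in control mice, 33.8 ± 5.39 in ORX mice and 37.2 ± 1.56 in ORX+DHT mice (SD, n = 3), and all 3 groups overlapped. Its log2 fold change was -0.11 in ORX versus control and 0.15 in ORX+DHT versus ORX (adjusted p 0.922 and 0.788 by limma). The 95% interval of the latter was -0.24 to 0.54.

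Nmnat3 (ENSMUSG00000032456, chr9:98287435-98420438), linked to mitochondria, stood at 27.8 ± 3.45, 34.0 ± 9.99 and 32.6 ± 6.85 normalised counts in the same order. ORX replicate 3, at 45.5, and ORX+DHT replicate 3, at 40.5, were above all other libraries, which lay between 24.3 and 31.2. Its log2 fold change was 0.25 in ORX versus control and -0.04 in ORX+DHT versus ORX (adjusted p 0.822 and 0.965 by limma), and the latter changed sign without ORX replicate 3 or ORX+DHT replicate 1 or 2.

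Nadk (ENSMUSG00000029063, chr4:155562378-155591001), the cytosolic NAD kinase, varied most among controls. They held 22.5, 33.2 and 41.7 normalised counts, against 41.2, 35.8 and 51.3 in ORX and 44.6, 35.8 and 41.5 in ORX+DHT libraries. Control 1 was the lowest of the 9 libraries and ORX replicate 3 the highest. The log2 fold changes were 0.41 in ORX versus control, -0.06 in ORX+DHT versus ORX and 0.35 in ORX+DHT versus control, and none passed (adjusted p 0.746, 0.925 and 0.763 by limma).

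Naprt (ENSMUSG00000022574, chr15:75890956-75894481) begins the nicotinic acid route and rested on few reads. Control libraries held 3, 6 and 8 reads, ORX libraries 10, 13 and 13, and ORX+DHT libraries 12, 4 and 7. On the normalised scale its controls (3.75 to 7.95) lay below all ORX libraries (9.82 to 11.1), where 14.3% of the genes above the filter did not overlap. It was under the filter on low values, and with no filter its log2 fold change of 0.75 did not pass (SE 0.40, adjusted p 0.777 by limma). The ratio of summed reads between ORX and control was 1.69, with an exact 95% counting interval of 0.925 to 3.21. Its exons share 277 bases with Eef1d on the same strand, so some reads could belong to either gene.

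Nadsyn1 (ENSMUSG00000031090, chr7:143795584-143822849), which turns the acid form into NAD at the end of that route, held 11, 20 and 11 reads in control, ORX and ORX+DHT muscle over 3 libraries each. Of the 20 reads in ORX, 12 came from replicate 2 and 1 from replicate 3. With no filter its log2 fold change in ORX+DHT versus ORX was -0.29 (SE 0.58, adjusted p 0.876 by limma).

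Nnmt (ENSMUSG00000032271, chr9:48591877-48605153), which methylates nicotinamide, was the least detected member, with 5, 9 and 2 reads in the 3 groups. The libraries held 2, 1 and 2 reads for control, 4, 3 and 2 for ORX and 1, 0 and 1 for ORX+DHT mice. ORX and ORX+DHT did not overlap on these few reads, where 19.5% of the genes above the filter did not. The ratio of ORX+DHT to ORX was 0.249, with an exact 95% counting interval of 0.0262 to 1.20. With no filter its log2 fold change there was -1.21 (SE 0.49, adjusted p 0.300 by limma).

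Of the 9 members, 5 passed the filter of a mean of at least 10 normalised counts: Nmrk2, Nampt, Nmnat1, Nmnat3 and Nadk. In ORX versus control 0 of these 5 passed the test, where 0.0579% of the 8631 genes tested did, 0.0116% higher and 0.0463% lower. Under an unadjusted p of 0.05 stood 1 member, Nmrk2, and 622 of all genes. With edgeR 0 members passed there, and with DESeq2 1, again Nmrk2. In ORX+DHT versus ORX 2 of 5 passed, both higher. As Nmrk2 was picked for its level in the ORX+DHT libraries, the count to read is that of the 4 others, of which 1, Nampt, passed, where 4.08% of 8770 genes were called, 2.38% higher and 1.7% lower. In ORX+DHT versus control 0 of the 4 members tested passed with limma, edgeR or DESeq2, and 0 had an unadjusted p under 0.05. Of all 8595 genes 0.0349% were called there, 0.0116% higher and 0.0233% lower, and 557 had an unadjusted p under 0.05. Of the 4 members other than Nmrk2, groups did not overlap for 1 in ORX versus control and 1 in ORX+DHT versus ORX, Nampt in both, and for 0 in ORX+DHT versus control, where 14.3%, 19.5% and 14% of all genes tested did not. The median log2 fold change of these 4 was 0.07, 0.05 and 0.17, against -0.01, 0.01 and -0.01 over all genes tested. The comparisons share libraries, so their values are not independent of each other.

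Levels of different genes can be compared only per length. As reads per kilobase of exon per 1000000 listed reads, Nmrk2 stood first in every library. In control muscle its level per length was 123 ± 11.2, followed by Nampt at 38.7 ± 3.44, Nmnat1 at 7.66 ± 0.381, Nadk at 5.63 ± 1.95 and Nmnat3 at 3.56 ± 0.297 (SD, n = 3). Below these came Naprt at 1.70 ± 0.675, Nmrk1 at 1.23 ± 0.835, Nadsyn1 at 0.792 ± 0.343 and Nnmt at 0.752 ± 0.255. In this order Nmnat1, Nadk and Nmnat3 overlapped their neighbours, as did the 4 genes from Naprt down, while Nmrk2, Nampt and Nmnat1 were separated from each other. In ORX muscle Nadk (8.17 ± 1.54) and Nmnat1 (7.96 ± 1.32) stood in the opposite order and overlapped. In ORX+DHT muscle the order was that of the controls, with Nmrk2 at 229.99 ± 45.4 and Nampt at 44.6 ± 4.87 apart from each other, and Nmnat1 at 8.32 ± 0.402 and Nadk at 7.36 ± 0.829 overlapping. Lengths are those of all exons of a gene joined, which understates the level of genes with long or rarely used exons.

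**Figure D3:**
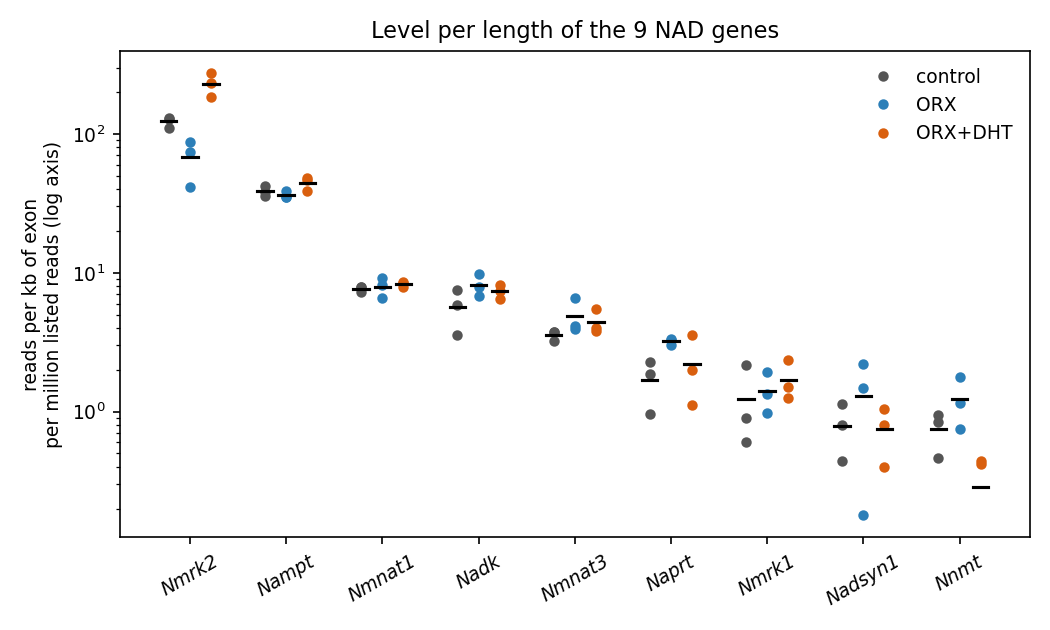
Level per length (vertical log axis, reads per kilobase of exon per 1000000 listed reads) of the 9 NAD genes in control, ORX and ORX+DHT libraries. Points are libraries (a library at 0, as for Nnmt, is not drawn) and bars are group means. Nmrk2 lies highest in all groups, with means of 123 for control, 67.7 for ORX and 229.99 for ORX+DHT mice.

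The Nmrk2 level per length exceeded that of Nampt by a ratio that differed between groups. It was 3.10, 3.38 and 3.05 in control libraries 1 to 3, then 1.93, 1.18 and 2.49 in ORX and 4.83, 7.05 and 3.92 in ORX+DHT libraries. The groups did not overlap in this ratio. Of the summed level per length of the 9 genes, Nmrk2 made up 67.2% ± 1.24 in control mice, 50.1% ± 8.38 in ORX mice and 76.3% ± 5.23 in ORX+DHT mice (SD, n = 3). Both values rest on the Nmrk2 level that chose the gene and are given without a test.

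Some markers of other cells differed between the groups along with these genes. The summed level of the 6 fibroblast markers (all 6 listed, Pdgfra, Dcn, Dpt, Pi16, Col1a1 and Lum) was 901 to 1724 normalised counts for control, 2008 to 2660 for ORX and 1014 to 1475 for ORX+DHT libraries, highest in ORX where Nmrk2 and Nampt were lowest. Col1a1 made most of this sum, at 522 to 1263, 1557 to 1883 and 605 to 894, and Lum was also highest in ORX without overlap. Dcn, Dpt, Pdgfra and Pi16 overlapped between control and ORX libraries. The 4 Schwann cell markers summed to 94.0 to 99.3, 135 to 155 and 91.2 to 128 in the same order, and the 4 satellite cell markers to 21.2 to 38.7, 39.2 to 52.0 and 25.3 to 39.6. The 6 slow fibre markers summed to 111 to 268, 167 to 219 and 82.0 to 128. Myl3 made most of this sum, at 94.0 to 231, 117 to 183 and 66.2 to 104. Adipocyte markers (6 of 6 listed) summed to 395 to 653, 395 to 475 and 414 to 476, nearly all of it Fabp4, which endothelial cells also express. Adipoq, specific to adipocytes, lay at 0 to 1.25, 1.96 to 12.4 and 1.01 to 10.9. Sums were, for macrophage markers, 35.4 to 56.2, 48.6 to 81.5 and 63.8 to 84.0, and for endothelial markers, 704 to 894, 759 to 928 and 909.98 to 1014. Blood markers summed to 116 to 176, 64.8 to 193 and 124 to 168. No marker of these lists was at 0 in all 9 libraries. The part of these cell types in the Nmrk2 and Nampt values was not tested.

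The fast fibre sum given above was lowest in ORX libraries, as Nmrk2 and Nampt were, but its genes did not move as 1. ORX libraries held 46190 to 46910 normalised counts of Acta1 against 59434 to 68735 with DHT, while Myh4, the largest of the sum in these groups, overlapped at 72718 to 85595 and 72361 to 81124. Set against 10000 normalised counts of that sum within each library, Nmrk2 stood at 13.1 ± 1.87 in control mice, 8.27 ± 3.08 in ORX mice and 25.8 ± 5.06 in ORX+DHT mice (SD, n = 3). ORX+DHT libraries (20.2 to 30.1) remained above all others on this scale, while controls (10.9 to 14.2) and ORX (4.92 to 11.0) overlapped. That overlap lay only between control 1 (10.9), the library that stood apart from the other controls, and ORX replicate 3 (11.0). Controls 2 and 3, at 14.1 and 14.2, were above all ORX libraries. Nampt stood at 11.2 ± 1.57, 11.99 ± 0.607 and 13.7 ± 1.90, and its 3 groups overlapped.

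Other genes around NAD were taken from 5 lists chosen by function. The de novo route from tryptophan was hardly detected: 9 of its 12 genes were listed and 2, Kyat1 and Kyat3, passed the filter on low values. In the 3 comparisons 0 were called by limma, edgeR or DESeq2, and 1, Kyat3, had an unadjusted p under 0.05, in ORX+DHT versus ORX, where 14.3% of all genes did. Kyat1, a kynurenine aminotransferase, stood at 45.8 ± 11.9 normalised counts in control mice, 34.5 ± 1.93 in ORX mice and 43.8 ± 4.95 in ORX+DHT mice, with a log2 fold change of 0.33 in ORX+DHT versus ORX (adjusted p 0.414 by limma). Kyat3, of the same family and named after its values were seen, went the other way, from 19.6 ± 2.75 in ORX to 10.9 ± 1.72 in ORX+DHT libraries without overlap, with a log2 fold change of -0.80 (SE 0.27, adjusted p 0.134 by limma). Of 15 genes of other salvage, transport and repair steps, 8 were tested. In the 3 comparisons 0 were called by limma, edgeR or DESeq2, and 1, Nudt13, had an unadjusted p under 0.05, in ORX+DHT versus ORX. The most abundant was Slc25a51, the mitochondrial NAD carrier, at 131 ± 7.50, 136 ± 12.3 and 129.8 ± 21.1 in control, ORX and ORX+DHT muscle, with a log2 fold change of -0.08 in ORX+DHT versus ORX (adjusted p 0.848 by limma).

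Among 26 genes whose products belong to families that use NAD (sirtuins, poly-ADP-ribose polymerases, ADP-ribosyltransferases, Cd38, Bst1 and Sarm1), 23 were tested in ORX+DHT versus ORX and 2 were called, both higher. This is read beside the 4.08% of all genes called there. The median log2 fold change of the 23 was 0.06, against 0.01 over all genes. Art3, Parp3, Tnks2 and Art5, 4 of the 23, had an unadjusted p under 0.05, where 14.3% of all genes did. Art5, of the same family as Art3 and named after its values were seen, went the other way. Its log2 fold change was -0.54 (SE 0.16, adjusted p 0.078 by limma), without overlap of the 2 groups. Art3, of the ADP-ribosyltransferase family, stood at 345, 346 and 269 normalised counts in control, 213, 246 and 249.8 in ORX and 367, 342 and 388 in ORX+DHT libraries. It rose by a log2 fold change of 0.63 (SE 0.10, adjusted p 0.000536 by limma), with ORX below both other groups without overlap. Parp3, a polymerase of DNA break repair, stood at 228, 183.5 and 179.8 in control, 148, 152 and 164 in ORX and 214, 218 and 220.3 in ORX+DHT libraries. Parp3 rose by 0.49 (SE 0.10, adjusted p 0.0061 by limma) and did not pass with all 9 libraries in 1 fit (adjusted p 0.103 by limma). Of this list 0 of 22 genes were called in ORX versus control by limma, edgeR or DESeq2 and 0 of 23 in ORX+DHT versus control. An unadjusted p under 0.05 was found for 5 (Parp3, Parp10, Parp14, Art3 and Sirt5) and 1 (Parp12), where 7.21% and 6.48% of all genes had one.

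Of 8 genes of nicotinamide clearance and the methyl cycle, 4 were tested, and 1, Mat2a, was called in ORX+DHT versus ORX and 0 in the other comparisons by limma, edgeR or DESeq2, where 4.08% of all genes tested were called in the first. Mat2a also had an unadjusted p under 0.05 in ORX versus control, where 7.21% of all genes did. Mat2a makes S-adenosylmethionine, the methyl donor that Nnmt uses. Its libraries held 387, 370.4 and 396 normalised counts in control, 293, 293 and 310.2 in ORX and 472, 466 and 364 in ORX+DHT muscle, with ORX lowest and no overlap with either group. It rose by a log2 fold change of 0.53 (SE 0.10, adjusted p 0.00462 by limma) and did not pass with all 9 libraries in 1 fit (adjusted p 0.0555 by limma).

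**Figure D4:**
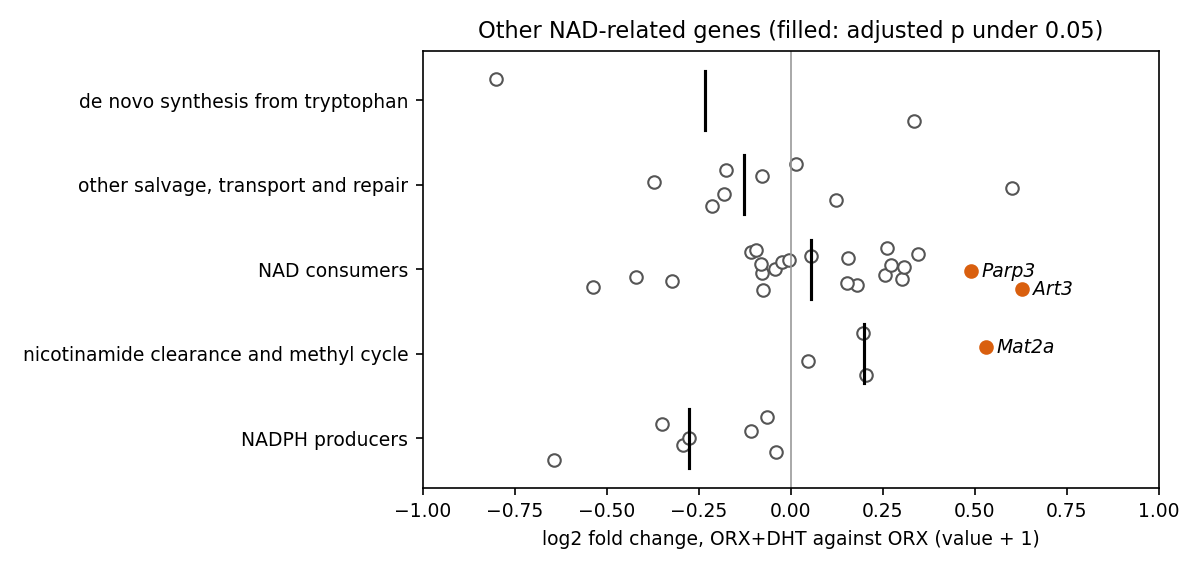
Log2 fold changes in ORX+DHT versus ORX (horizontal axis, log2(value + 1) scale) of the tested genes of 5 further lists, 1 point a gene, with the list median as a bar. Filled points passed at an adjusted p under 0.05: Art3 (0.63), Mat2a (0.53) and Parp3 (0.49).

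To find genes with a pattern like that of Nmrk2, Pearson's r of log2 values with Nmrk2 was taken over the 9 libraries for 3794 genes with a mean of at least 50 normalised counts. The 5 highest were Sbk2 (0.962), a protein kinase, Evc (0.956), a protein of the primary cilium, Fkbp5 (0.949), a co-chaperone of steroid receptors, Ppp2r2a (0.935), a subunit of protein phosphatase 2A, and Nt5dc3 (0.933). The points are the same 9 libraries in 3 groups and share their scaling, so r is a description. Sbk2 stood at 188 ± 20.6 normalised counts in control mice, 92.2 ± 17.0 in ORX mice and 352 ± 11.8 in ORX+DHT mice, which is the order of the Nmrk2 groups. Evc stood at 66.6 ± 10.8, 36.8 ± 6.82 and 96.5 ± 15.7, and Ppp2r2a, with a much narrower range, at 113 ± 5.20, 102 ± 3.75 and 118 ± 3.26. Fkbp5 stood at 74.0 ± 16.0, 30.9 ± 10.2 and 107 ± 4.19, and Nt5dc3 at 200.3 ± 26.6, 142 ± 6.25 and 251 ± 11.3. An r over 0.9 was found for 0.369% of the genes compared.

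The 3 lowest r were those of Kcnc4 (-0.943), a potassium channel, Mllt3 (-0.943), a factor of transcript elongation, and Bcat2 (-0.932), the mitochondrial branched-chain aminotransferase. Kcnc4 stood at 327 ± 22.6, 418 ± 14.0 and 246 ± 14.1 normalised counts in control, ORX and ORX+DHT muscle, with the ORX libraries highest. Mllt3 stood at 152 ± 14.5, 199 ± 16.3 and 133 ± 7.14, and Bcat2 at 88.7 ± 9.12, 106 ± 7.71 and 70.3 ± 8.11. Among the NAD genes the r with Nmrk2 was 0.761 for Nampt and 0.662 for Nmnat1. It was -0.04 for Nmnat3 and -0.02 for Nadk, and the 4 genes with few reads ranged from -0.786 (Nnmt) to 0.275 (Nmrk1).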

How the data were processed

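Per the labels' protocols, polyA-selected libraries were made with a kit that keeps strand. The submitters' processing notes name Trim Galore 0.6.7, HISAT2 2.2.1, featureCounts 2.0.1, DESeq2 1.36.0 and GRCm38, and the strand setting of counting is not given in the sources used here. The authors deposited 2 tables of normalised counts of protein-coding genes, a signal in which each library's reads are divided by 1 factor. In every column 100% of values were whole multiples of 1 step (tolerance 0.01), which gave back the reads. In control 3 that step lay so near 1 that it cannot be told from rounding. Control and ORX (14596 genes) and ORX and ORX+DHT (14675 genes) were scaled separately and tested within their tables. For ORX+DHT against control, and for all printed levels, 14300 shared genes were joined and rescaled by median-of-ratios factors. Sham columns were taken as control, matched by replicate number.

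limma 3.58.1 in R 4.3.3 (lmFit, eBayes with trend) was run on log2(value + 1), leaving out genes whose mean was below 10, with Benjamini-Hochberg adjustment over all genes and calls at an adjusted p under 0.05. This scale understates changes of low genes. Counting intervals (95%, Clopper-Pearson on the split of reads) describe counting alone: no molecular identifiers were counted, so copies of 1 molecule may be among the reads. edgeR 4.0.16 and DESeq2 1.42.0 on the recovered reads, and other scalings, filters and left-out libraries, were alternatives. The fits were also run on simulated data, with the outcome not given here. That simulation had no spread particular to a gene and no outlying library, so it does not bear on the calls of Nmrk2 and Nampt. Gene models were GENCODE M21. All 9 members were named in every library, and of the further lists the called genes, or the most abundant gene where none was called. The members and lists were chosen with earlier results of these data known. p-values set a group difference against the spread between these libraries, which limma moderates across genes. Whether that is the spread between single mice is not known.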

Additional observations from a re-analysis of the deposited data

How the results depend on the processing

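There were 17 alternatives per comparison. In ORX versus control the number of members called was 0 and became 1, Nmrk2, with DESeq2, and it ranged from 0 to 1 when libraries were left out. In ORX+DHT versus ORX it was 2 and became 1 with all 9 libraries in 1 fit, DESeq2, no filter, robust eBayes, TMM scaling and quantile normalisation, and it ranged from 1 to 2 when libraries were left out. Robust eBayes lost Nmrk2 and the others Nampt (limma adjusted p 0.0536 with no filter and 0.0502 with TMM scaling). In ORX+DHT versus control it stayed at 0 of 4. The cause was not tested. Of the log2 fold changes that passed in no fit, 5 changed sign as libraries were left out, ranging for Nmnat1 from -0.21 to 0.013 (ORX versus control) and from -0.021 to 0.11 (ORX+DHT versus control). The range in ORX+DHT versus ORX was -0.20 to 0.18 for Nmnat3, -0.18 to 0.072 for Nadk and -0.18 to 0.057 for Slc25a51. Over all genes, calls in ORX versus control numbered 5 (1 higher), against 6 (2 higher) with quantile normalisation, 16 with no filter, 23 with all 9 libraries in 1 fit, 28 with DESeq2 and 51 without control replicate 1. There were 358 in ORX+DHT versus ORX, against 123 with all 9 libraries in 1 fit, 221 with DESeq2 and 223 without ORX+DHT replicate 1. There were 3 (1 higher) in ORX+DHT versus control, against 6 (4 higher) with quantile normalisation, 11 with all 9 libraries in 1 fit, 13 with DESeq2 and 66 without control replicate 1. Replicate numbers are shared between groups. Over all pairs of groups, deviations of same-numbered libraries correlated from -0.165 to 0.151, and those of other libraries from -0.163 to 0.195. Only 3 of 9 libraries were closest to one of their own number, so the numbers were not taken as pairs. Between ORX and ORX+DHT alone, same-numbered libraries had r of 0.063, 0.061 and 0.151, above the others there (-0.087 to 0.025). Whether the numbers mark pairs in that comparison was not settled. The replicate block gave 571 calls in ORX+DHT versus ORX and left the members called at 0, 2 and 0 in the 3 comparisons. Nmrk1, Naprt, Nadsyn1 and Nnmt, with 2 to 36 reads per group, allow no firm comparison at this depth.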

Other observations

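NADP is kept reduced by enzymes of the cytosol and mitochondria. A list of 10 genes was taken as NADPH producers, without a check of which cofactor each enzyme prefers, and 7 of them were tested. In ORX+DHT versus ORX 0 of the 7 were called by limma, edgeR or DESeq2 and 3 (Me1, Idh2 and Mthfd1) had an unadjusted p under 0.05, where 14.3% of all genes did. All 7 log2 fold changes were below 0, from -0.64 to -0.04. Their median was -0.28, against 0.01 over all 8770 genes tested. In ORX versus control 5 of the 7 were above 0 (median 0.18) and 0 were called by limma. In ORX+DHT versus control 3 of the 7 were above 0 (median -0.12) and 0 were called by limma. These comparisons share libraries. Me1, malic enzyme of the cytosol, was the most abundant, at 292 ± 22.2 normalised counts in control mice, 326 ± 36.0 in ORX mice and 268 ± 13.5 in ORX+DHT mice (SD, n = 3), with a log2 fold change of -0.28 in ORX+DHT versus ORX (adjusted p 0.165 by limma). Its ORX and ORX+DHT libraries did not overlap, where 19.5% of all genes tested did not.

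Nnt, the mitochondrial transhydrogenase that makes NADPH from NADH, is known to be disrupted in the C57BL/6J strain. It stood at 0.747 ± 0.660 normalised counts in control mice, 0.930 ± 0.986 in ORX mice and 0.329 ± 0.570 in ORX+DHT mice (SD, n = 3), with 0 to 1.96 in single libraries.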
